A study of Mus musculus with 6 samples.

Results

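The genes described here encode 9 proteins of the synaptonemal complex and of the chromosome axes it joins: Sycp1, Sycp2, Sycp3, Syce1, Syce2, Syce3, Tex12, Hormad1 and Hormad2. They were taken by gene name from the 54532 genes of the deposited read count table, and all 9 were found. They were measured in whole testis of mice in which the testis long non-coding RNA gene 1700052I22Rik was knocked out (KO, 3 libraries) and of wild-type mice (WT, 3 libraries), a comparison made to learn what this transcript does in spermatogenesis. Genotype and tissue are what the labels give of each group. Age, strain, the deleted segment and the number of animals per library are not given, and nothing says that replicates were separate animals, so every p-value speaks only of differences among libraries, which may be technical. All values are RNA levels of the whole organ, in which fewer cells of a type and less RNA per cell cannot be told apart.

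The synaptonemal complex is the protein ladder that holds paired homologous chromosomes together in meiotic prophase. Its sides are the axes (lateral elements), built on cohesin with SYCP2 and SYCP3. Its rungs are SYCP1 molecules, the transverse filaments, which reach from each axis to the midline. There the central element proteins SYCE1, SYCE2, SYCE3 and TEX12 lock the rungs of both sides together. HORMAD1 and HORMAD2 mark axes that are not yet paired and leave them as the ladder forms. In the mouse testis these proteins are found in spermatocytes, and male mice lacking most of them stop spermatogenesis in meiosis.

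Library totals ran from 17635045 to 18117593 counts, and 19320 genes passed a low-count filter, all 9 members among them. The knocked-out gene had 0, 0 and 0 counts in the KO libraries, against 185, 175 and 218 in the WT libraries. KO 2 and WT 1 stood apart from the other libraries on the leading principal component of log2 CPM, at 30.2 and 22.8 against -17.5 to -6.98. This component held 26.6% of the variance. The next held 23.5%, with KO 3 at 29.8 and WT 2 at -31.9, against -2.62 to 6.67 in the other libraries. Markers of pachytene and diplotene spermatocytes, 9 of 9 detected, summed to 6310 to 6873 CPM (counts scaled to the library total) in KO and 6211 to 6472 CPM in WT. Epididymis markers held 12 counts over 5 genes and all 6 libraries.

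Expressed per kilobase of exon, so that genes of different length can be set side by side, the members spanned a wide range of levels. Syce1 stood highest, at 194 ± 7.74 CPM per kb in KO and 197 ± 4.87 in WT (SD, n = 3). Next came a cluster of 5 genes with group means from 63.9 to 81.2 CPM per kb, in the order Syce3, Syce2, Sycp3, Hormad1 and Sycp1, and each neighbouring pair in this cluster overlapped over the 6 libraries. Sycp2 followed at 46.0 ± 2.70 in KO and 42.4 ± 4.92 in WT, then Tex12 at 19.8 ± 0.160 and 20.1 ± 1.45, and Hormad2 was lowest at 7.67 ± 1.48 and 7.79 ± 0.708 CPM per kb. The steps from Syce1 to Syce3, from Sycp1 to Sycp2, from Sycp2 to Tex12 and from Tex12 to Hormad2 were larger than the spread, in that no library of the higher gene fell to any library of the lower one. On average over the 6 libraries the highest member held 25.2 times the level of the lowest. The order is the same in TPM over all counted genes.

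**Figure D1:**
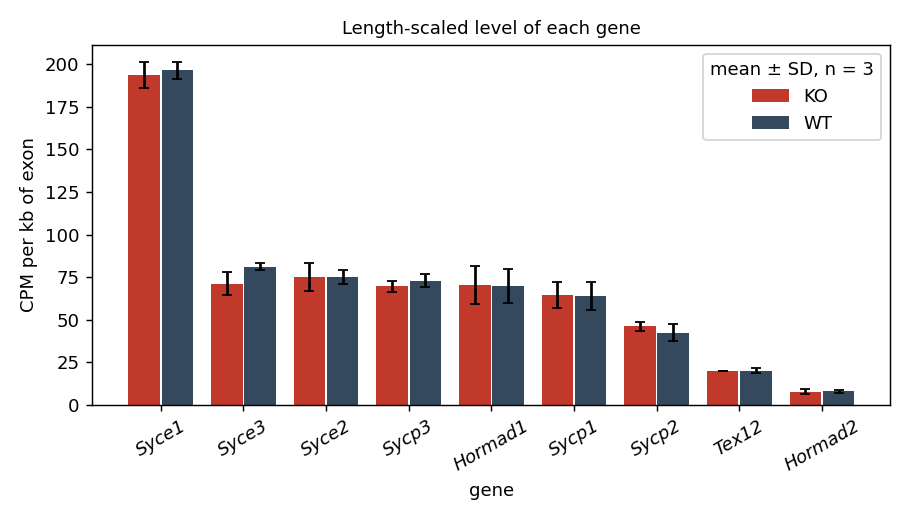
Level of the 9 genes in CPM per kilobase of exon (vertical axis, from 0), ordered from highest to lowest; bars are means of 3 libraries, KO left of WT, and error bars are SDs. Syce1 is at 194 in KO and 197 in WT, 5 genes lie between 63.9 and 81.2, and Hormad2 is lowest at 7.67 and 7.79.

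No member was called between KO and WT. In edgeR, with p-values adjusted by Benjamini-Hochberg over all tested genes, 0 of the 9 members passed, against a background of 0.00518% of tested genes, which is the knocked-out gene alone. Before adjustment, too, 0 members reached p under 0.05, against 4.63% of all tested genes, and DESeq2 likewise called 0. The members' log2 fold changes ran from -0.19 to 0.12 with a median of -0.02, and the median over all tested genes was -0.0025. All 9 members had a 95% interval of the log2 fold change inside -0.5 to 0.5, as did 53.7% of all tested genes. Without KO 2 and WT 1 the members' values ran from -0.16 to 0.19, and 0 were called.

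**Figure D2:**
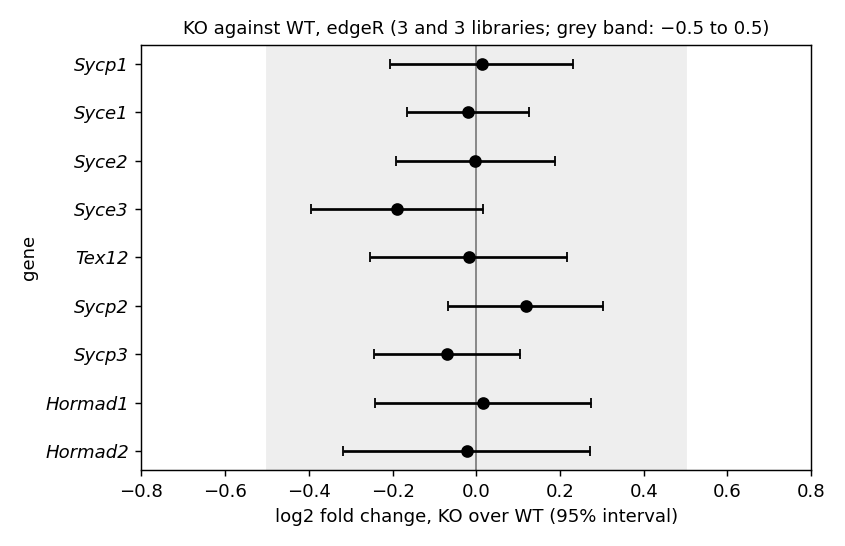
Log2 fold change of each member, KO over WT, on the horizontal axis, with its 95% interval from edgeR (3 KO and 3 WT libraries); the grey band marks -0.5 to 0.5. All 9 intervals include 0 and lie inside the band, and Syce3 is farthest to the left at -0.19.

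Sycp1 encodes the transverse filament, the protein that spans the gap between paired axes. The gene (ENSMUSG00000027855) lies on chromosome 3, minus strand, bases 102818499 to 102936100 (mm10), with 33 exons in its longest transcript. Its levels were 201, 254 and 233 CPM in KO 1 to KO 3, against 248, 240 and 194 CPM in WT 1 to WT 3. Each group held high and low libraries, KO 1 and WT 3 being the low ones, and the groups overlapped along most of their range. The log2 fold change was 0.01 (95% interval -0.21 to 0.23, adjusted p = 0.992 in edgeR). A processed pseudogene, Sycp1-ps1, held 52 to 86 counts per library, where Sycp1 held 3524 to 4484; how reads common to both were assigned is not stated.

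The axis genes are Sycp2, Sycp3, Hormad1 and Hormad2. Sycp2 (ENSMUSG00000060445; chromosome 2, minus strand, bases 178345293 to 178407685), the longest member with 5967 exon bases, encodes a protein that builds axis filaments with SYCP3. Sycp2 had 256, 285 and 283 CPM in KO 1 to KO 3, against 287, 241 and 232 CPM in WT 1 to WT 3. All KO libraries lay above WT 2 and WT 3, but WT 1 was the highest of the 6. The log2 fold change was 0.12 (95% interval -0.07 to 0.30), the largest of the members on the higher side, with an adjusted p of 0.965 in edgeR. Without WT 1 it was 0.22 and its unadjusted p was 0.0196, still short of a call.

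Sycp3, whose protein forms the fibres of the lateral element and is the usual stain for axes, had 85.9, 92.9 and 84.8 CPM in KO 1 to KO 3, against 93.8, 96.1 and 86.9 CPM in WT 1 to WT 3. The groups overlapped, and the log2 fold change was -0.07 (95% interval -0.24 to 0.10). Sycp3 (ENSMUSG00000020059; chromosome 10, plus strand, bases 88459569 to 88473236) lies wholly inside Chpt1 on the other strand, and 660 of its 1264 exon bases are also exon bases of Chpt1. Whether the counting used strand is not given, so reads of this stretch cannot be assigned with certainty. Chpt1, a phospholipid synthesis gene, had 118 ± 6.22 CPM in KO and 111 ± 4.68 in WT (SD, n = 3).

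Hormad1, which recruits checkpoint kinases to unpaired axes, had 102, 141 and 122.5 CPM in KO 1 to KO 3, against 130, 131 and 100 CPM in WT 1 to WT 3. The groups overlapped, with KO 2 the highest library and WT 3 the lowest. Hormad1 (ENSMUSG00000028109) occupies bases 95559677 to 95587671 of chromosome 3 on the plus strand. The log2 fold change was 0.02 (95% interval -0.24 to 0.27). Hormad2 (ENSMUSG00000020419; chromosome 11, minus strand, bases 4345814 to 4441105), which encodes a related HORMA domain protein of the checkpoint for unpaired chromosomes, had 18.6, 25.6 and 18.7 CPM in KO 1 to KO 3, against 22.1, 22.7 and 19.1 CPM in WT 1 to WT 3. KO 2 was again the highest library, and the other KO libraries lay just below WT 3. Its log2 fold change was -0.02 (95% interval -0.32 to 0.27). Per kilobase, Hormad2 stood at 0.109 ± 0.0107 of Hormad1 in KO and 0.113 ± 0.00704 in WT (SD, n = 3).

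**Figure D3:**
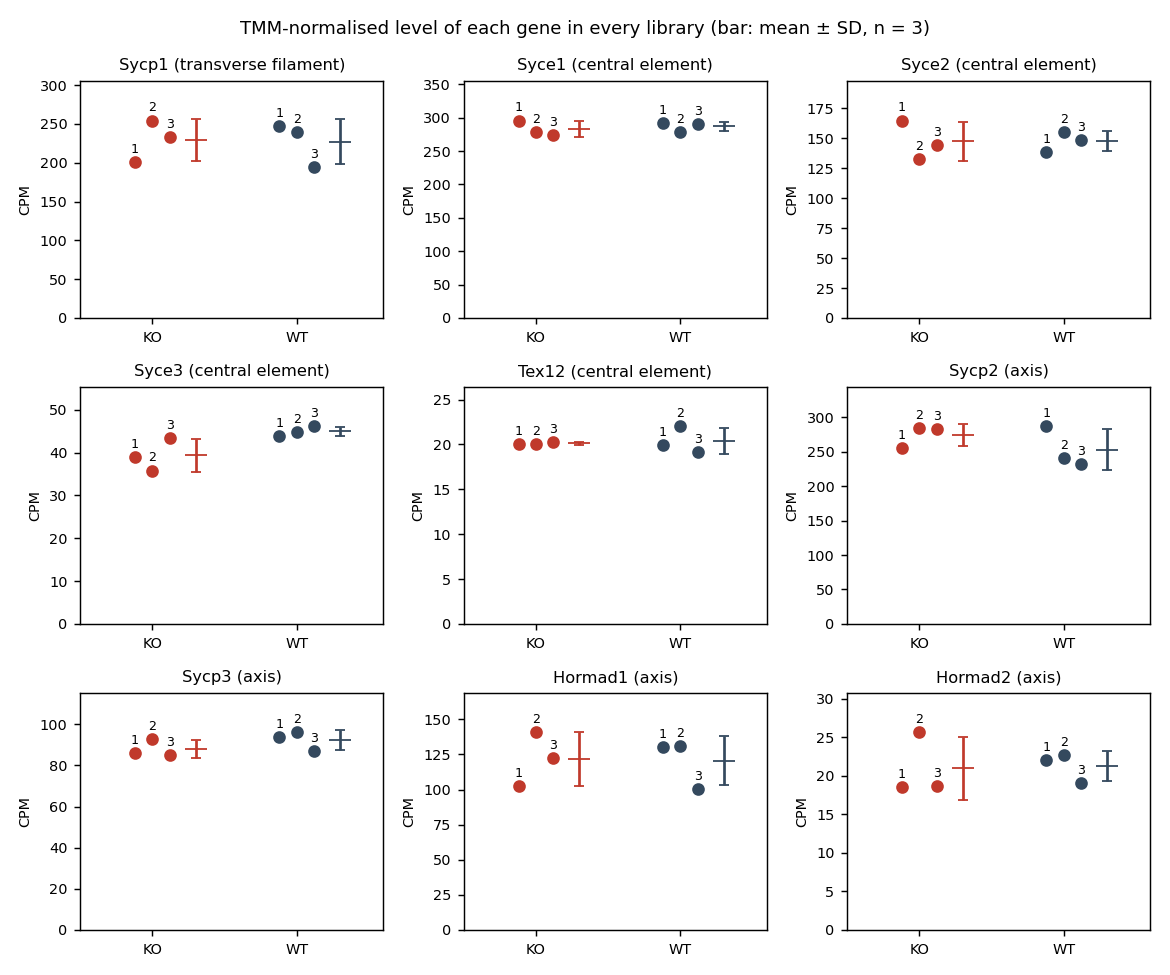
CPM (vertical axes, each from 0) of the 9 genes in every library, KO left of WT; numbers beside points are replicate numbers, and the bars beside them are mean ± SD of 3 libraries. The groups overlap for 8 genes, and Syce3 is the exception, with KO 3 at 43.4 CPM just under WT 1 at 43.9.

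Of the central element genes, Syce1 and Tex12 varied least from library to library. Syce1 (ENSMUSG00000025480; chromosome 7, minus strand, bases 140777229 to 140787852), whose protein joins the SYCP1 ends at the midline, had 296, 279 and 274 CPM in KO 1 to KO 3, against 292, 279 and 290 CPM in WT 1 to WT 3. The highest of its 6 libraries was 1.08 times the lowest, the smallest span of any member, and 4.77% of tested genes within 2-fold of its level had a smaller one. Its log2 fold change was -0.02, with the narrowest interval of the 9 (95% interval -0.17 to 0.13). Tex12 (ENSMUSG00000032065; chromosome 9, minus strand, bases 50556819 to 50561325), whose protein assembles with SYCE2 into the fibres of the central element, had 20.03, 20.03 and 20.31 CPM in KO 1 to KO 3, against 19.97, 22.01 and 19.16 CPM in WT 1 to WT 3. Its coefficient of variation over the 6 libraries, 4.67%, was below the 5.25% that counting error gives for independent reads. The log2 fold change of Tex12 was -0.02 (95% interval -0.25 to 0.22).

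Syce2 (ENSMUSG00000003824; chromosome 8, plus strand, bases 84872111 to 84888221), which encodes the partner of TEX12, had 165, 133 and 145 CPM in KO 1 to KO 3, against 139, 155 and 148 CPM in WT 1 to WT 3. KO 1 was its highest library and KO 2 its lowest, so the WT values lay inside the KO range. The log2 fold change was -0.0022 (95% interval -0.19 to 0.19), and its sign turned under several settings. Tex12 stood at 0.267 ± 0.0288 of Syce2 per kilobase in KO and 0.268 ± 0.0154 in WT (SD, n = 3). Syce2 and Tex12 each overlap a gene on the other strand, Gcdh and Il18, but share 0 exon bases with it.

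Syce3 (ENSMUSG00000078938; chromosome 15, minus strand, bases 89390174 to 89410503) encodes a small protein that brings SYCE1 and SYCE2 to SYCP1. It had 38.9, 35.8 and 43.4 CPM in KO 1 to KO 3, against 43.9, 44.8 and 46.1 CPM in WT 1 to WT 3. It was the only member whose groups did not overlap, which 9.32% of all tested genes also showed (KO lower in 4.63% of all tested genes); 1 of 9 members is near that background. The gap between KO 3 and WT 1 was small beside the spread within KO. The log2 fold change was -0.19 (95% interval -0.39 to 0.02, unadjusted p = 0.0673, adjusted p = 0.965 in edgeR). Its unadjusted p was 0.0258 without KO 3, 0.251 without KO 2 and 0.215 without KO 2 and WT 1, and no setting called it. With 553 exon bases Syce3 is also the shortest member. In log2 CPM centred on each gene's mean, tested genes of up to 600 bases had a median of -0.106 in KO 2 and 0.0867 in KO 1. Syce3 was lowest in KO 2 and also low in KO 1. With each library's trend on gene length removed the log2 fold change of Syce3 was -0.19 and its unadjusted p in edgeR 0.0450. The part of gene length in the values of Syce3 was not tested.

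Several members moved together between libraries, without regard to genotype. Sycp1, Sycp3, Hormad1 and Hormad2 each had their 3 highest levels in KO 2, WT 1 and WT 2. Of all tested genes 9.02% had the same 3 libraries on top. This grouping was picked after the values were seen and is given as a description. In log2 CPM centred on each gene's mean, Hormad1 stood at 0.23 in KO 2, 0.11 in WT 1 and 0.13 in WT 2, against -0.23 in KO 1 and -0.26 in WT 3. Sycp1 stood at 0.16, 0.12 and 0.08 in those first libraries and at -0.18 in KO 1 and -0.23 in WT 3. The highest library was 1.40 times the lowest for Hormad1, 1.38 times for Hormad2 and 1.31 times for Sycp1, but 1.13 times for Sycp3. Among tested genes within 2-fold of its level, 91.1% had a smaller span than Hormad1 and 86% a smaller one than Sycp1, while the shares were 70.1% for Hormad2 and 16.4% for Sycp3. Over the 6 libraries Hormad1 varied by 13.6%, where counting error alone gives 2.15%.

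**Figure D4:**
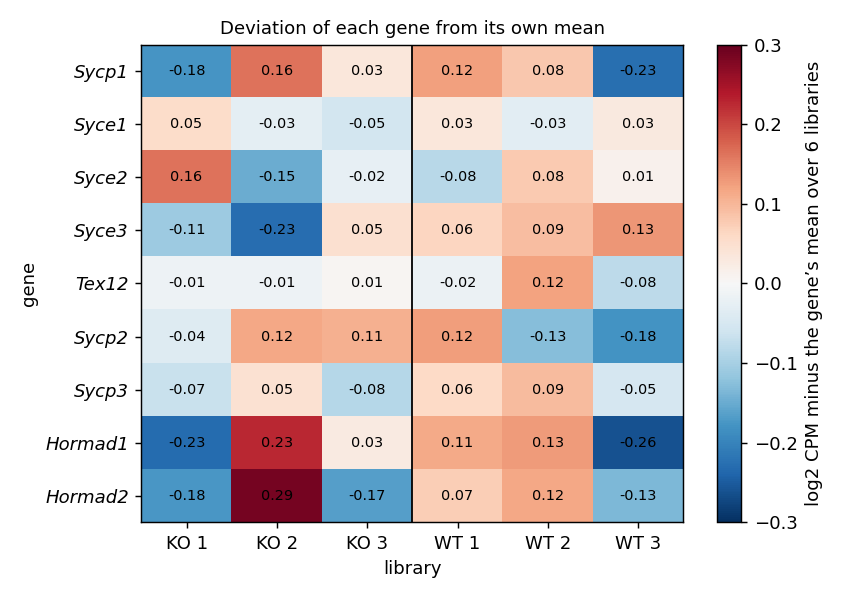
Log2 CPM of each member (rows) in each library (columns, KO left of WT) minus that gene's mean over the 6 libraries; red is higher and blue lower, and the numbers are the plotted values. Sycp1, Sycp3, Hormad1 and Hormad2 are red in KO 2, WT 1 and WT 2, and Syce1 stays between -0.0547 and 0.0543.

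The other members, Sycp2, Syce1, Syce2, Syce3 and Tex12, did not follow this order. Sycp2, also an axis gene, was highest in WT 1, KO 2 and KO 3, and stood at -0.13 in WT 2. Syce2 was lowest in KO 2, at -0.15, and Syce3 also, at -0.23. The same libraries also differed in other lists. The partners of synapsis and the axes summed to 3301, 3458 and 3306 CPM in KO 1 to KO 3, against 3417, 3483 and 3279 CPM in WT 1 to WT 3, highest in KO 2, WT 1 and WT 2. Markers of meiotic entry, 6 of 6 tested, summed to 77.1, 69.7 and 85.3 CPM in KO 1 to KO 3, against 69.4, 71.0 and 82.4 CPM in WT 1 to WT 3, so their lowest 3 libraries were those in which Hormad1 was highest. Sohlh2 of this list ran the other way, with its 3 highest levels in those libraries. Rhox13 did not follow the order of the sum either, with 5.46 CPM in WT 2 against 4.11 CPM in KO 1. The 9 pachytene and diplotene markers summed to 6592, 6310 and 6873 CPM in KO 1 to KO 3, against 6211, 6374 and 6472 CPM in WT 1 to WT 3, and the same libraries were lowest. This order was that of Ldhc, a lactate dehydrogenase gene with 3835 to 4410 CPM. Without Ldhc the other 8 summed to 2451, 2429 and 2464 CPM in KO 1 to KO 3, against 2376, 2415 and 2331 CPM in WT 1 to WT 3, with WT 3 lowest. Leydig cell markers, 6 of 6 tested, were low in KO 2 and WT 1, at 226 and 207 CPM, and highest in WT 2, at 812 CPM. The part of these lists in the variation of Hormad1 and Sycp1 was not tested.

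The sequences before the start sites of the genes with this shared order are shown to let their promoters be read beside the levels. They are the 250 bases before the RefSeq start (GRCm38.p6, written 5′ to 3′ on the strand of the gene), and capitals mark the palindromic E-box CACGTG and the E2F motif GGCGGGAA, searched on both strands.
Sycp1: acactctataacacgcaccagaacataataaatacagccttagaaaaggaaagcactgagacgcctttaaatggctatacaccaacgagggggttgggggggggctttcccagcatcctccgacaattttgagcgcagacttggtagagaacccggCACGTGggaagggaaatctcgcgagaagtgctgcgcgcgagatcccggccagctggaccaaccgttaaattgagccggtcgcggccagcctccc
Hormad1: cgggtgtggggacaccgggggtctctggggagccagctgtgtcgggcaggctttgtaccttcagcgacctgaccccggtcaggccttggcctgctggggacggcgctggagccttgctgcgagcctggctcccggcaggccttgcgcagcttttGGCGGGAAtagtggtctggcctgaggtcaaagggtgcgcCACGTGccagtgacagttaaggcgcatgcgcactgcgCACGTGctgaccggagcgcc
Sycp3: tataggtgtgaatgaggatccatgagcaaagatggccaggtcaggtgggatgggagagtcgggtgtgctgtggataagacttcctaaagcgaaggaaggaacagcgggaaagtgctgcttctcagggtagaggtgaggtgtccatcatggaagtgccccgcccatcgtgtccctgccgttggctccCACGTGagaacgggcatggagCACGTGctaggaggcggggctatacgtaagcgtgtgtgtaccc
Hormad2: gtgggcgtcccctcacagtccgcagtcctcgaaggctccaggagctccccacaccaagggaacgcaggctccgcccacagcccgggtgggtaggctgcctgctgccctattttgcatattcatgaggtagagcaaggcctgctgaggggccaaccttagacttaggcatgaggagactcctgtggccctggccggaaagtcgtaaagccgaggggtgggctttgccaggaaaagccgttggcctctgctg

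These windows are chr3:102936101-102936350 (minus strand) for Sycp1, chr3:95559427-95559676 (plus strand, the first of its starts) for Hormad1, chr10:88459337-88459586 (plus strand) for Sycp3 and chr11:4441083-4441332 (minus strand) for Hormad2. The E-box is bound by MAX and its partners, among them MGA, which in mouse embryonic stem cells sits in a repressor complex with E2F6 on germline genes. All 9 members were found in the promoter table. An E-box lay in at least 1 window of 5 of the 9, Sycp1, Syce2, Tex12, Sycp3 and Hormad1, against 8.97% of 13410 tested genes in that table. Sycp3 and Hormad1 each held 2, and Sycp1 held 1. The E2F motif lay before Syce2, Tex12 and Hormad1, against 3.46% of tested genes. Tex12, with an E-box, and Syce1, with none, were among the steadiest members. Hormad1, with 2, and Hormad2, with none, were among the most variable. Whether the motifs bear on the variation between libraries was not tested. The motif CNCCTCAG, linked in mouse to the meiotic initiators STRA8 and MEIOSIN, lay before Syce2 and Hormad2 (8.53% of tested genes), and before Syce2 it overlaps the E2F motif. A MYB motif, AACNGTT, lay before Sycp1 (3.93% of tested genes). A match describes letters in the window and is not a measured site.

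Summed over roles, the 4 central element genes held 490 ± 26.7 CPM in KO and 500 ± 5.02 in WT, and the 4 axis genes 505 ± 40.7 in KO and 487 ± 47.2 in WT (SD, n = 3). All 9 together held 1183, 1266 and 1224 CPM in KO 1 to KO 3, against 1274, 1232 and 1136 CPM in WT 1 to WT 3. The ranges of both genotypes overlapped. By per-library ratios of length-scaled levels, Sycp2 stood at 0.662 ± 0.0393 of Sycp3 in KO and 0.581 ± 0.0600 in WT. The groups overlapped, with WT 1, at 0.647, above KO 1, at 0.631. Syce3 stood at 0.368 ± 0.0435 of Syce1 in KO and 0.414 ± 0.0142 in WT, and KO 3, at 0.418, lay within the WT range.

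No partner of the complex was called either. Of 19 other genes of synapsis and the axes 18 were tested and 0 were called, with 10 above 0, 8 below 0 and a median log2 fold change of 0.04. The smallest p belonged to Rec8, the meiotic cohesin subunit on which axes are built, with 76.4, 70.3 and 61.6 CPM in KO 1 to KO 3, against 72.8, 97.7 and 69.8 CPM in WT 1 to WT 3 (log2 fold change -0.21, 95% interval -0.47 to 0.06). WT 2 alone stood above the KO range by a clear margin. Fkbp6, an immunophilin of synapsed chromosomes, had -0.15 and Atr, the checkpoint kinase of unpaired axes, 0.11, each with an adjusted p of 0.965 in edgeR. Atr was the 1 gene of these 18 whose groups did not overlap, against 9.32% of all tested genes. It had 319, 334 and 356 CPM in KO 1 to KO 3, against 318, 312 and 308 CPM in WT 1 to WT 3. The gene of SIX6OS1, a central element protein that binds SYCE1 and is listed as 4930447C04Rik, was named after its values were seen. It had 20.3, 29.1 and 22.6 CPM in KO 1 to KO 3, against 28.2, 22.5 and 22.9 CPM in WT 1 to WT 3, and overlapped between groups. Sycp2l, the relative of Sycp2 known from oocytes, held 1 to 9 counts per library and was not tested.

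Of 18 recombination genes 18 were tested and 0 were called, with 9 above 0, 9 below 0 and a median log2 fold change of -0.00087. Cntd1, a cyclin-like factor that fixes the sites of crossovers, had 36.6, 37.8 and 36.8 CPM in KO 1 to KO 3, against 40.8, 43.0 and 39.9 CPM in WT 1 to WT 3. It was the 1 gene of these 18 whose groups did not overlap, against 9.32% of all tested genes, and its log2 fold change of -0.15 (95% interval -0.34 to 0.04) was not called (adjusted p = 0.965 in edgeR). Gm960, the partner of SPO11 in making meiotic breaks, had 0.27 (95% interval -0.20 to 0.75) at 3.93 ± 0.632 CPM in KO and 3.25 ± 0.672 in WT. Hsf2bp, which brings BRCA2 to meiotic breaks, had 0.08.

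Relatives of the members by protein family were mostly scarce. Of 17 genes with a HORMA fold or kinship to SYCP3 15 were tested and 0 were called, with 7 above 0 and 8 below 0. Xlr3a, a multicopy X-linked relative of Sycp3, had an unadjusted p under 0.05 (0.0386, adjusted p = 0.965 in edgeR) at 0.808 ± 0.172 CPM in KO and 0.406 ± 0.0637 in WT (log2 fold change 0.98, 95% interval 0.06 to 1.90). It rested on 11 to 17 counts per KO library and 6 to 8 per WT library, and its reads are uncertain because its copies are nearly identical. Syce1l, a paralog of Syce1 named after its values were seen, had 17.2 ± 1.56 CPM in KO and 18.7 ± 1.19 in WT (log2 fold change -0.13, 95% interval -0.38 to 0.13).

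The genes whose profile over the 6 libraries lay nearest to the members' mean profile were Wdr60, which encodes a dynein subunit of cilia, 4933434E20Rik, and Mdc1, a DNA damage mediator of the silenced sex chromosomes. Their root-mean-square distances in centred log2 CPM were 0.0136, 0.0179 and 0.0182. Of 11031 protein-coding genes averaging 5 CPM or more, 368 lay within 0.05, so these 3 head a large crowd.

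Markers of other cells of the testis are given for the makeup of the libraries. Spermatogonial markers, 8 of 8 tested, summed to 175 to 185 CPM in KO and 184 to 196 in WT, and round spermatid markers, 8 of 8, to 1860 to 1968 in KO and 1768 to 1951 in WT. Of the spermatogonial markers 6 had a log2 fold change below 0 and 2 above. Etv5 and Dmrt1, both lower in KO, had an unadjusted p under 0.05 in edgeR, which 4.63% of all tested genes had. Sertoli cell markers summed to 1535 to 1600 CPM in KO and 1585 to 1803 in WT, with a median log2 fold change of -0.05. Of these 8 markers 4 lay below 0 and 4 above, and 1, Amhr2, had an unadjusted p under 0.05 in edgeR (lower in KO). Macrophage markers, 8 of 8 tested, summed to 82.9 to 95.4 CPM in KO and 93.3 to 124 in WT. All 8 had a log2 fold change below 0, as did 50.7% of all tested genes, and 4 had an unadjusted p under 0.05, against 4.63% of all tested genes. Leydig markers summed to 226 to 616 CPM in KO and 207 to 812 in WT, and 6 of 6 had a log2 fold change below 0, with a median of -0.41. Insl3, the Leydig cell hormone, named after its values were seen, had 55.6, 17.4 and 55.0 CPM in KO 1 to KO 3, against 78.8, 83.8 and 82.6 CPM in WT 1 to WT 3. Its groups did not overlap, as in 9.32% of all tested genes (log2 fold change -0.94, unadjusted p = 0.0039, adjusted p = 0.965 in edgeR). Peritubular and endothelial markers summed to 78.3 to 95.3 and 18.4 to 18.9 CPM in KO, against 75.4 to 94.96 and 18.3 to 24.9 in WT. Of the 5 endothelial markers 4 lay below 0 and 1 above, and 1, Cdh5, had an unadjusted p under 0.05 in edgeR (lower in KO). None of these genes was called, and their part in the members' values was not tested.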

How the data were processed

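RNA of whole testis was sequenced in 6 libraries. RNA was taken with TRIzol and built into libraries with a VAHTS mRNA-seq kit, per the labels' protocols. The submitters' processing notes name HISAT2 2.0.0 and mm10. The table that the authors deposited holds raw counts of reads for each Ensembl gene, with its coordinates and length, per the file header. Neither the counting tool nor its use of strand is stated in these sources. Columns were matched to samples by name, and 0 were left over. Coordinates of the 9 members equal those of GENCODE M21, and their deposited lengths equal its exon unions.

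Genes were kept with filterByExpr (minimum count 10, minimum total 15). KO was compared with WT by edgeR 4.0.16 (TMM, glmQLFit, glmQLFTest), without covariates, with Benjamini-Hochberg adjustment over 19320 genes at 0.05. The biological coefficient of variation was 0.112. CPM are TMM-normalised, and log2 CPM used a prior count of 2. The fit was tested on simulated data. Alternatives used other scalings and filters, DESeq2 1.42.0, limma 3.58.1 voom, a block, left-out libraries and protein-coding genes; removal of a lowess length trend (span 0.3) was added after the data were seen. All pairs of libraries differed by more than sampling noise (chi-square per degree of freedom at least 4.30).

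The members and lists were chosen with earlier results of these data known. Named were the target, all members, from each of the lists of partners, recombination genes and relatives the genes with p under 0.05 or else the 3 with the smallest p, and the 3 nearest profiles; other names followed their values. Intervals cover counting error and library spread, and counting errors assume independent reads.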

Additional observations from a re-analysis of the deposited data

How the results depend on the processing

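Under all 17 alternatives 0 of the 9 members and 0 of the 36 tested partner genes were called. The number of genes called over the whole table was 1 in the analysis reported, 50 with no low-count filter, 2 with DESeq2 and 9 without WT 1 and KO 2 together, and it ran from 1 to 3 when 1 library was left out. The members' median log2 fold change moved by less than the spread between libraries throughout. Syce3, Sycp2 and Sycp3 kept their direction, at -0.27 to -0.12, 0.06 to 0.22 and -0.11 to -0.04.

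Values near 0 turned in sign, none of them called. Syce2, at -0.0022, was 0.00077 with DESeq2 size factors in edgeR, 0.0039 with upper quartile scaling, 0.00039 with the filter at a mean of 5 CPM, 0.0296 without WT 1 and KO 2, 0.0075 among protein-coding genes and 0.011 with the length trend removed. Without WT 1 and KO 2, Syce1 was 0.0050 and Hormad1 -0.0373. With 1 library left out the log2 fold changes ran from -0.089 to 0.10 for Sycp1, -0.051 to 0.0023 for Syce1, -0.089 to 0.073 for Syce2, -0.060 to 0.040 for Tex12, -0.10 to 0.13 for Hormad1 and -0.19 to 0.059 for Hormad2. The cause was not tested.

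Nothing in the labels pairs the samples by replicate number. Deviations from group means of same-numbered libraries correlated across genes at -0.173, -0.0289 and 0.114, and those of other pairs at -0.165 to 0.185. The means rest on 3 libraries each, so these values cannot settle whether equal numbers belong together. In the fit with a replicate block 1 gene was called and 0 members, and the members' median log2 fold change was -0.016. Not every library correlated best with its own number. Depth is low for Xlr3a, with 6 to 17 counts per library and a 95% interval of its log2 fold change from 0.06 to 1.90.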
